A study of Rattus norvegicus with 9 samples.

Results

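The genes described here make, bind or break down hyaluronan, and 8 were followed across the 3 groups of the study: Has1, Has2, Has3, Hyal1, Hyal2, Cd44, Tnfaip6 and Cemip. They were picked by gene symbol, with earlier results of these data known. Each was found among the 17588 genes of the table (NCBI gene identifiers 282821, 25694, 266805, 367166, 64468, 25406, 84397 and 308797 in that order). The samples were primary chondrocytes, the cells of cartilage, from wild-type rats. A control group (n = 3 libraries) was kept in normal culture without interleukin-1β (IL-1β, an inflammatory cytokine). Another group (n = 3) received IL-1β in normal culture, and the last (n = 3) received IL-1β and was then co-cultured with rat dermal fibroblasts, the chondrocytes in the lower and the fibroblasts in the upper chamber of a transwell. Levels are given as FPKM, that is sequenced fragments divided by transcript length and by the library's mapped total, and so can be set side by side between genes. Nothing in the labels says whether the 3 libraries of a group came from separate animals or cultures, so the spread behind each p-value is that of these libraries and may be technical only.

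Hyaluronan is a very long, unsulfated glycosaminoglycan. Hyaluronan synthases (HAS1, HAS2 and HAS3) sit in the plasma membrane, join glucuronic acid and N-acetylglucosamine taken from UDP-sugars, and push the growing chain out of the cell. In cartilage the chain is the backbone to which aggrecan is locked by link protein, and the cell surface receptor CD44 holds it to the chondrocyte. TNFAIP6 (also called TSG-6) is a secreted hyaluronan-binding protein that moves heavy chains of inter-alpha-inhibitor onto hyaluronan. Breakdown runs through hyaluronidases such as the cell-surface HYAL2 and the lysosomal HYAL1, and through CEMIP, a protein needed for hyaluronan depolymerization in several cell types.

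FPKM summed to between 771058 and 832248 over the 9 libraries, lowest in the control group, and 11337 to 11522 genes reached 1 FPKM in a library. Pearson's r of log2(FPKM + 1) across the tested genes was 0.994 to 0.995 within groups and 0.961 to 0.990 between groups (genes are not independent replicates). Of 10 chondrocyte markers in the table all 10 passed the filter on low values, and their summed level was 1907 to 1992 FPKM in control, 440.2 to 459.8 in IL-1β and 619 to 676 in co-culture libraries. Markers of skeletal muscle summed to 164 to 171, 366 to 384 and 356 to 399 FPKM in the same order. Of these, 7 of 7 were called higher with IL-1β and 0 of 7 lower, against 26.5% and 20.2% of all tested genes. The dermal fibroblast list summed to 595 to 597, 510.1 to 510.6 and 473 to 510.1 FPKM. Of its 11 genes, Dpp4, Entpd1 and Clec3b stayed at 0.49 FPKM or less, whereas Thy1, Dlk1 and Pdgfra averaged 323, 172 and 53.1 FPKM in control chondrocytes. Of its 6 tested genes 3 were called higher with IL-1β (Twist2 at 23.7 and 40.6 FPKM in control and IL-1β, En1 at 6.57 and 9.99, and Pdgfra) and 1 lower, Dlk1. Dlk1 averaged 68.6 FPKM with IL-1β, and its fall from control was larger than that of the whole sum. Macrophage markers, relevant because leukocytes also carry CD44, summed to 28.5 to 31.98, 25.8 to 28.3 and 23.7 to 25.2 FPKM, with Ptprc, Csf1r, C1qa and C1qb at 0.42 FPKM or less. Of their 7 tested genes 2 were called higher with IL-1β (Cd14 at 12.02 and 15.95 FPKM in control and IL-1β, and Cd68 at 2.02 and 3.66) and 2 lower (Lyz2 at 9.20 and 1.96, and Laptm5). Of 8 endothelial markers 6 stayed at 0.59 FPKM or less, and that list summed to 13.0 to 13.98, 9.40 to 10.04 and 9.41 to 10.2 FPKM. In such bulk libraries a change in the number of cells of a type and a change in RNA per cell cannot be told apart, and the part of these marker shifts in the results below was not tested.

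In control chondrocytes the 8 genes spanned 3 orders of level. Cd44 stood highest at 164 ± 1.20 FPKM (SD, n = 3), above 94.1% of the tested genes. Hyal2 at 24.9 ± 2.04 and Has2 at 22.95 ± 0.650 followed and overlapped in their libraries, and Tnfaip6 came next at 20.9 ± 0.443. Cemip at 3.97 ± 0.176 and Hyal1 at 3.55 ± 0.141 were low but did not overlap. Has1 at 1.27 ± 0.0964 lay above only 5.82% of the tested genes, and Has3 at 0.14 ± 0.0458 did not pass the filter of 1 FPKM in at least 3 libraries. With IL-1β the order became Cd44, Has2, Tnfaip6, Hyal2, Hyal1, Cemip, Has1 and Has3, where Has2 and Tnfaip6 overlapped. The same order held by group means in co-culture, where Hyal1 and Cemip overlapped and Tnfaip6 and Hyal2 were barely apart (lowest 30.17 against highest 30.16 FPKM).

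**Figure D1:**
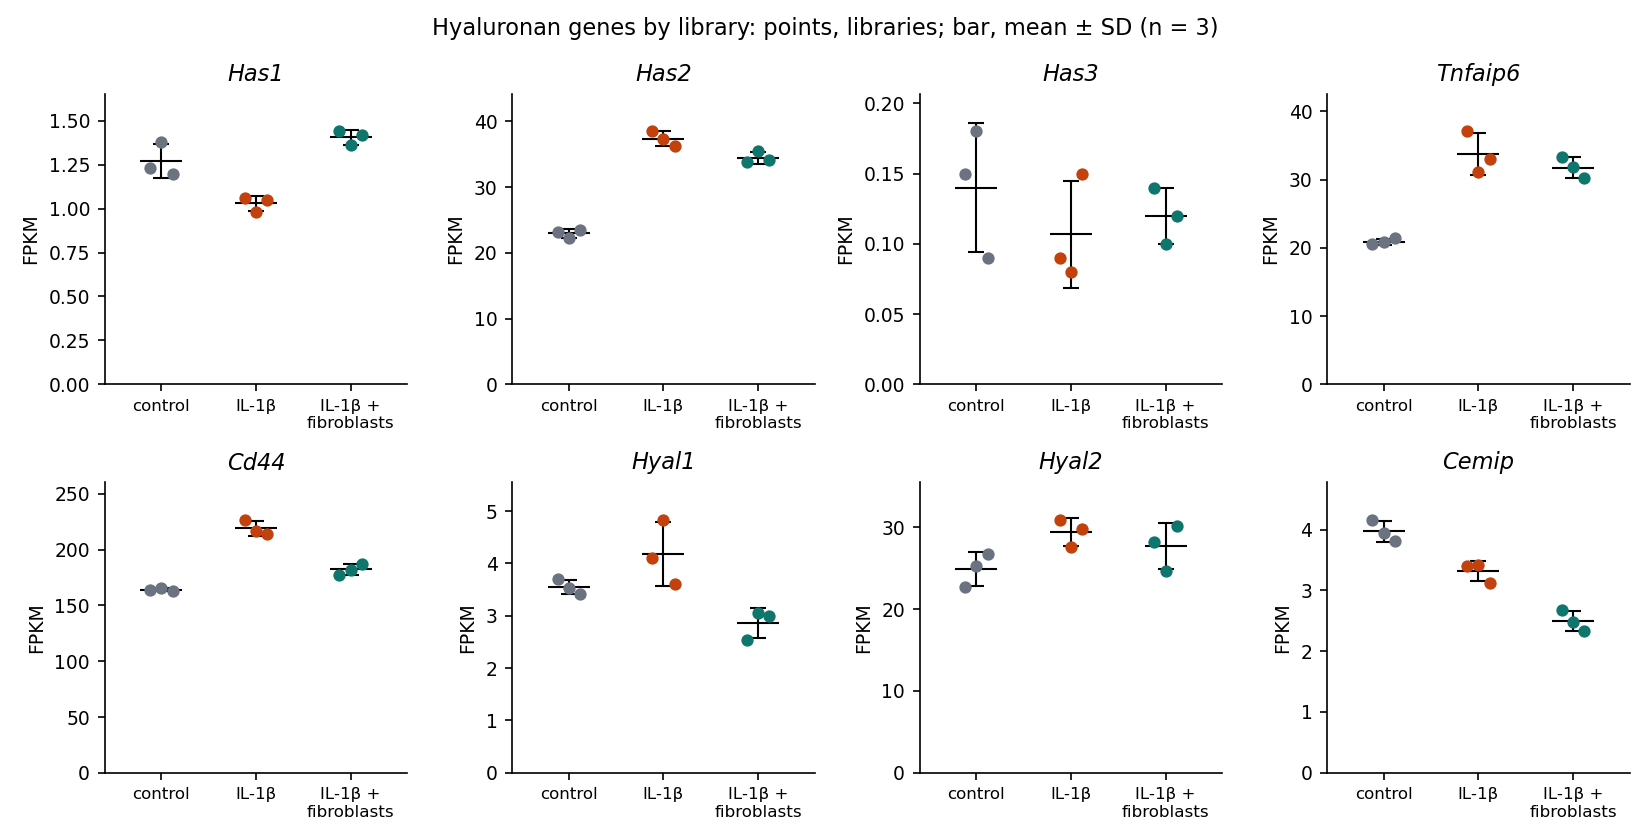
FPKM of the 8 hyaluronan genes (vertical axes from 0, a separate scale for each gene) in control, IL-1β and IL-1β plus fibroblast libraries; points are libraries, black bars the mean ± SD of 3. Has2, Tnfaip6 and Cd44 stand higher with IL-1β than in control in every library, and Cemip steps down from control (3.97) to IL-1β (3.32) to co-culture (2.50).

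The comparison of IL-1β with control asked how the cytokine changed the chondrocytes. The synthase Has2, the binding protein Tnfaip6 and the receptor Cd44 rose by 1.3 to 1.6 times, the hyaluronidase Hyal2 rose less, and the depolymerization gene Cemip fell. In limma 4 of the 7 members that passed the filter were called higher and 1 lower. Over all 11732 genes tested, 26.5% were called higher and 20.2% lower, 46.7% in either direction. That is 3109 higher and 2370 lower, but 2249 higher and 3188 lower once library sums were made equal. Quantile-normalized values gave 2312 higher and 3325 lower, and median-of-ratios scaling gave 2723 higher and 2732 lower. The groups did not overlap for 6 of the 7, against 56.4% of all tested genes. The median difference of the 7 was 0.23 on the log2(FPKM + 1) scale and that of all tested genes 0.02. Without control replicate 1 or control replicate 2 the number called was 3 in place of 5.

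The comparison of co-culture with IL-1β alone asked how co-cultured cells differed from stimulated cells in normal culture. No group had the transwell without fibroblasts, so the part of the fibroblasts themselves was not tested. Cd44, Hyal1 and Cemip fell and the minor synthase Has1 rose, whereas Has2 and Tnfaip6 did not pass the test (log2 differences of -0.11 and -0.08). The Has1 call was lost in 8 of 15 other settings, among them each library left out in turn. Has2 passed in 3 of 16 other settings. Of the 7 members 3 were called lower and 1 higher, where 10.1% of all tested genes were called lower and 11.9% higher (22.0% in either direction). The groups did not overlap for 5 of the 7, against 37.6% of all tested genes. The median difference of the 7 was -0.11 on the log2 scale and that of all tested genes 0.02. This comparison uses the same IL-1β libraries as the first, so a gene's values in the 2 are not independent.

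Set against control, co-cultured chondrocytes had higher Has2, Tnfaip6 and Cd44 and lower Cemip. That is 3 members called higher and 1 lower of 7, where 21.8% of all tested genes were called higher and 12.2% lower (33.9% in either direction). Here 2554 genes were higher and 1427 lower, but 1541 higher and 2009 lower once library sums were made equal. Quantile-normalized values gave 1694 higher and 2073 lower, and median-of-ratios scaling gave 1854 higher and 1869 lower. The groups did not overlap for 5 of the 7, against 46.5% of all tested genes. The median difference was 0.15 for the 7 and 0.04 for all tested genes on the log2 scale.

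**Figure D2:**
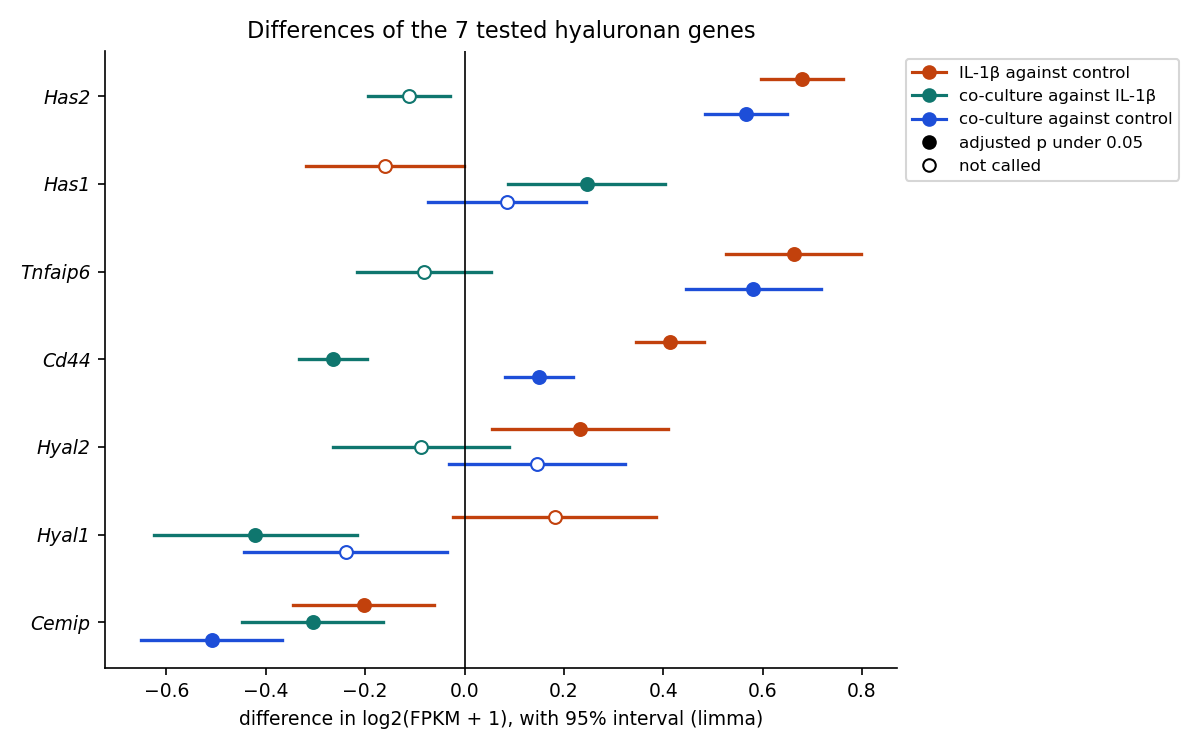
Differences in log2(FPKM + 1) of the 7 hyaluronan genes that passed the filter, by comparison; lines are 95% intervals from limma, filled points are called at an adjusted p under 0.05 and open points are not. Has2 and Tnfaip6 lie far above 0 against control in both IL-1β groups, and the 3 intervals of Cemip all lie below 0.

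Has2 encodes the synthase that supplies most of the hyaluronan of many connective tissue cells. Its level was 23.1, 22.2 and 23.5 FPKM in control libraries 1 to 3, 38.5, 37.4 and 36.2 with IL-1β, and 33.8, 35.5 and 34.1 in co-culture. The control libraries were the lowest and the 3 groups did not overlap. With IL-1β the mean rose 1.63-fold, from 22.95 ± 0.650 to 37.3 ± 1.13 FPKM (log2 difference 0.68, SE 0.04, limma adjusted p = 2.15e-07). In co-culture Has2 stood at 34.5 ± 0.903 FPKM, 1.50-fold above control (log2 difference 0.57, SE 0.04, limma adjusted p = 1.78e-06). Its difference from IL-1β alone was -0.11 (95% interval -0.19 to -0.03) and missed the threshold, at a limma adjusted p of 0.0550. This last difference passed with genes of mean FPKM 5 or more, with median-of-ratios scaling and with quantile normalization (adjusted p 0.0340 to 0.0488). The co-culture mean lay 80.0% of the way from the control mean to the IL-1β mean (75.6% to 87.2% by co-culture library). The span of Has2 overlaps that of the gene LOC108351495 in the RefSeq annotation. Strand is unknown and overlap of exons was not checked, so some reads may be shared between the pair.

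The other two synthases were minor. Has1 measured 1.23, 1.38 and 1.20 FPKM in control, 1.06, 0.98 and 1.05 with IL-1β and 1.44, 1.36 and 1.42 in co-culture. The IL-1β libraries were the lowest of all, and the co-culture libraries overlapped with control. Has1 was 1.37-fold higher in co-culture than with IL-1β alone (log2 difference 0.25, SE 0.07, limma adjusted p = 0.0337). That call ended when any 1 of the 6 libraries was left out (adjusted p 0.0663 to 0.0984) and when only those 6 libraries were fitted (0.0622). Its difference from control was -0.16 with IL-1β (95% interval -0.32 to -0.002; limma adjusted p = 0.0910) and 0.09 in co-culture (-0.07 to 0.24; limma adjusted p = 0.394). The first of these passed without a filter, without the trend and with quantile normalization (adjusted p 0.0108 to 0.0418). Has3 ranged from 0.08 to 0.18 FPKM over the 9 libraries with overlap between all groups. It was too low for the filter, and in a fit of all genes without a filter its 3 adjusted p in limma were 0.451, 0.826 and 0.715.

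The summed level of the 3 synthases was 24.5, 23.8 and 24.8 FPKM in control, 39.6, 38.4 and 37.4 with IL-1β and 35.4, 36.96 and 35.6 in co-culture, so the sum followed Has2. Has2 made up 94.2 ± 0.691% of it in control, 97.0 ± 0.229% with IL-1β and 95.8 ± 0.265% in co-culture (n = 3 each). The Has1 share was 5.02, 5.80 and 4.84% in control, 2.68, 2.55 and 2.81% with IL-1β and 4.07, 3.68 and 3.99% in co-culture. The 3 groups did not overlap in the sum or in the Has1 share. Each of these differences between groups had an exact two-sided permutation p of 0.1, the smallest that 3 against 3 libraries allow (0.133 adjusted over the 12 such tests), so this design could not bring them past 0.05.

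**Figure D3:**
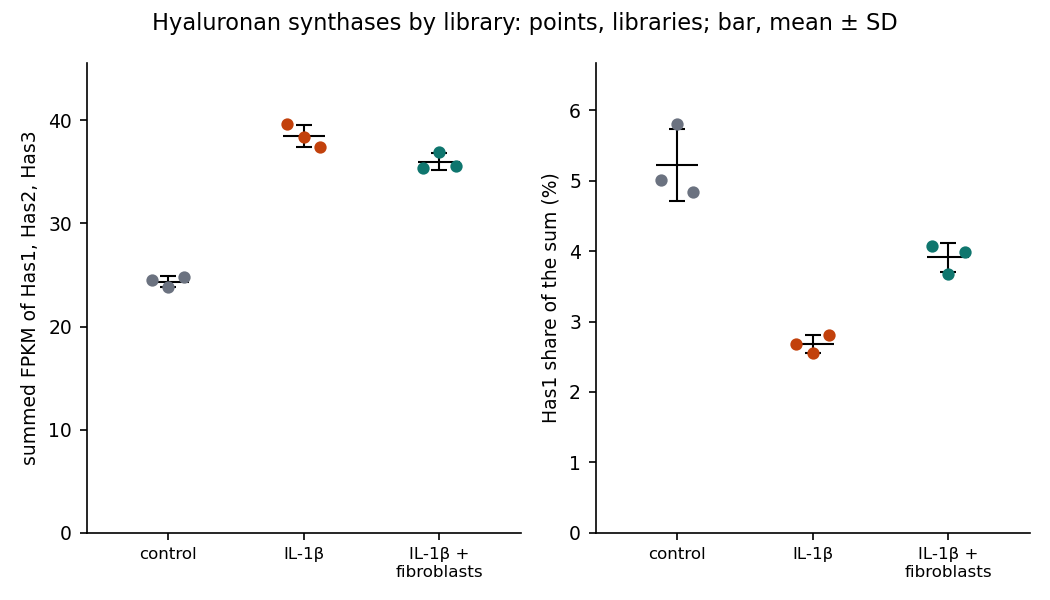
Summed FPKM of Has1, Has2 and Has3 (left) and the Has1 share of that sum in percent (right), by library, with the mean ± SD of 3. The sum is highest with IL-1β (38.5) and the Has1 share lowest there (2.68%), and co-culture lies between in both.

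Tnfaip6, the TSG-6 gene, is known as an inflammation-induced gene of joint cells. It measured 20.5, 20.8 and 21.4 FPKM in control, 37.1, 31.1 and 33.1 with IL-1β and 33.3, 31.9 and 30.2 in co-culture. All 6 stimulated libraries lay above all controls, and the 2 stimulated groups overlapped. With IL-1β it rose 1.62-fold (log2 difference 0.66, SE 0.06, limma adjusted p = 1.11e-05), and in co-culture it was 1.52-fold above control (0.58, SE 0.06, limma adjusted p = 5.71e-05). Between co-culture and IL-1β alone the difference was -0.08 (95% interval -0.22 to 0.05; limma adjusted p = 0.379). The co-culture mean lay 84.7% of the way from control to IL-1β (72.3% to 96.4% by library).

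Cd44 encodes the main hyaluronan receptor. Its level was 164, 166 and 163 FPKM in control, 227, 217 and 214 with IL-1β and 177, 182 and 188 in co-culture. The 3 groups were fully separate, with co-culture in between. It rose 1.33-fold with IL-1β (log2 difference 0.41, SE 0.03, limma adjusted p = 2.27e-06). It was 1.20-fold lower in co-culture than with IL-1β alone (-0.26, SE 0.03, limma adjusted p = 0.000235) and 1.11-fold above control (0.15, SE 0.03, limma adjusted p = 0.00425). Over the 16 other settings this difference from control ranged from 0.0849 to 0.169, with limma adjusted p up to 0.0425. The co-culture mean lay 32.8% of the way from control to IL-1β (23.7% to 42.5% by library). Whether this position differs from those of Has2 and Tnfaip6 was not tested.

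Among the genes of breakdown, Hyal2, which cuts long hyaluronan at the cell surface, measured 22.7, 25.2 and 26.8 FPKM in control, 30.9, 27.6 and 29.8 with IL-1β and 28.2, 24.7 and 30.2 in co-culture. The co-culture libraries overlapped with both other groups. Hyal2 rose 1.18-fold with IL-1β (log2 difference 0.23, SE 0.08, limma adjusted p = 0.0352). The call ended without control replicate 1 (0.124), control replicate 2 (0.0649), IL-1β replicate 1 (0.111) or IL-1β replicate 3 (0.0869), under each of the 3 rescalings (0.0604 to 0.0910), without a filter (0.0617) and without the trend (0.0509). In co-culture its difference was -0.09 from IL-1β alone (95% interval -0.27 to 0.09; limma adjusted p = 0.477) and 0.15 from control (-0.03 to 0.32; limma adjusted p = 0.192). The latter passed without co-culture replicate 2 (0.0493).

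Hyal1, a lysosomal hyaluronidase, measured 3.70, 3.53 and 3.42 FPKM in control, 4.11, 4.83 and 3.61 with IL-1β and 2.54, 3.05 and 2.99 in co-culture. The co-culture libraries were the 3 lowest, and control and IL-1β overlapped. Hyal1 fell 1.46-fold from IL-1β alone to co-culture (log2 difference -0.42, SE 0.09, limma adjusted p = 0.00899). Against control it was 0.18 with IL-1β (95% interval -0.02 to 0.39; limma adjusted p = 0.132) and -0.24 in co-culture (-0.44 to -0.04; limma adjusted p = 0.0698). The first passed without IL-1β replicate 3 (0.0415). The second passed under each of the 3 rescalings and with only the 6 libraries compared (0.0334 to 0.0446). In RefSeq's rat annotation Hyal1 neighbours Hyal2 and overlaps Naa80 and Hyal3, so its reads may be shared with theirs; Hyal3 itself stood at 3.03 ± 0.467, 2.67 ± 0.530 and 2.69 ± 0.289 FPKM in control, IL-1β and co-culture.

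Cemip measured 4.16, 3.95 and 3.81 FPKM in control, 3.41, 3.42 and 3.13 with IL-1β and 2.67, 2.48 and 2.34 in co-culture. The 3 groups did not overlap, and co-culture was the lowest. Cemip was 1.59-fold lower in co-culture than in control (log2 difference -0.51, SE 0.06, limma adjusted p = 0.000203) and 1.33-fold lower than with IL-1β alone (-0.31, SE 0.06, limma adjusted p = 0.00740). The fall with IL-1β was 1.20-fold (-0.20, SE 0.06, limma adjusted p = 0.0247). It missed the threshold without control replicate 1 (0.0867), control replicate 2 (0.0562) or IL-1β replicate 3 (0.0865). It was the one member below control in both IL-1β groups by the test.

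RefSeq promoter windows (GRCr8) were at hand for 6 of the 8 members: Has1, Hyal1, Hyal2, Cd44, Tnfaip6 and Cemip. The 250 bases before each start were searched on both strands for the AP-1 motif TGANTCA, the TATA box TATAAA and the NF-κB consensus. These motifs were found in 6.34%, 12.9% and 6.33% of 33469 such windows. The 2 members with a match are shown, and whether a match goes with a change under IL-1β was not tested. In Tnfaip6 (chr3:56911148-56911397, plus strand) the capitals mark an AP-1 match from 192 to 186 bases before the start, and in Cemip (chr1:147471484-147471733, minus strand) a TATA box match from 31 to 26 bases before it. None of the 6 windows held the NF-κB consensus, and the other 4 held none of the 3 motifs. A match is a description of the letters and not a bound site. The motifs overlapped nowhere in these windows.
Tnfaip6: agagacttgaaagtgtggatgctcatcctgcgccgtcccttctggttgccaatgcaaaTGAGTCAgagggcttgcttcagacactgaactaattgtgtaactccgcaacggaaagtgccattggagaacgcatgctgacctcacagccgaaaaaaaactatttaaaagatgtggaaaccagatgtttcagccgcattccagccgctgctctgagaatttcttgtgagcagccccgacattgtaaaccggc
Cemip: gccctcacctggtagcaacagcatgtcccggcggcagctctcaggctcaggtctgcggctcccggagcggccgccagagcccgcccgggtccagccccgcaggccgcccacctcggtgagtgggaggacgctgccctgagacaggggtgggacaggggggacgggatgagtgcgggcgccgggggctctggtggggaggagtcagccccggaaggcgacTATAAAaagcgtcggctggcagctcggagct

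Other genes of the pathway were followed in 5 lists. Of the 53 symbols followed, 43 were in the table and 34 passed the filter. With IL-1β 14 of the 34 were called higher and 9 lower, against 26.5% and 20.2% of all tested genes. From IL-1β to co-culture 8 were called higher and 9 lower, against 11.9% and 10.1%. Relative to control, co-culture had 14 called higher and 7 lower, against 21.8% and 12.2%. The lists were chosen with earlier results of these data known, so a count above its share is no evidence about the pathway. The same shares are the background for the counts of each list below.

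The supply of UDP-sugars, from which synthases build the chain, was represented by 11 genes, all tested. With IL-1β 5 rose and 1 fell, against 26.5% and 20.2% of all tested genes (median log2 difference 0.09, and 0.02 over all tested genes). In co-culture 0 rose and 4 fell from the IL-1β level, against 11.9% and 10.1% (median -0.10, and 0.02 over all tested genes). Ugdh, which makes UDP-glucuronic acid, stood at 170.2 ± 2.18, 279.95 ± 3.81 and 229.7 ± 8.83 FPKM in control, IL-1β and co-culture (log2 differences 0.71 and -0.28, limma adjusted p = 3.44e-08 and 0.000144). Uap1, which makes UDP-N-acetylglucosamine, stood at 80.8 ± 2.06, 140.5 ± 4.06 and 113 ± 4.93 FPKM, with log2 differences of 0.79 and -0.32. Gfpt2, an entry enzyme of the hexosamine pathway, and the phosphoglucomutase gene Pgm1 rose by 0.69 and 0.70 with IL-1β and then fell by 0.28 and 0.16 in co-culture on the same scale. The related gene Gfpt1 was more abundant, at 38.7 ± 0.317, 40.6 ± 0.620 and 41.0 ± 1.26 FPKM in control, IL-1β and co-culture. It was not called in any comparison. The fifth gene that rose was Gnpnat1, and the one that fell was Nagk. Ugdh, Uap1, Gfpt2, Pgm1 and Gnpnat1 were still called higher than control in co-culture.

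Hyaluronan-binding proteins of the matrix split in direction. Of 16 listed genes 11 were in the table and 5 passed the filter, of which 2 rose and 2 fell with IL-1β. Hapln1, the link protein, and Acan, aggrecan, fell by 2.85 and 1.66 on the log2 scale, while Vcan, versican, rose by 0.65. Ptx3, a pentraxin that helps to join hyaluronan chains carrying heavy chains, rose from 13.7 ± 0.218 to 172 ± 7.95 FPKM (log2 difference 3.56, limma adjusted p = 2.98e-11) and stood at 89.6 ± 7.38 in co-culture (-0.94 from IL-1β, limma adjusted p = 2.78e-06). In co-culture Hapln1 and Acan were higher than with IL-1β alone, by 1.17 and 0.64. Vcan differed by -0.09 from IL-1β alone (limma adjusted p = 0.0759) and passed with median-of-ratios scaling, quantile normalization or without co-culture replicate 3 (0.0371 to 0.0424). Ambp and Itih4, which encode subunits of the inter-alpha-inhibitor family, did not exceed 0.08 and 0.03 FPKM in any library, and Itih1, Itih2, Itih3, Itih5 and Habp2 were not analysed here.

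Of 9 other receptors and intracellular binders 6 passed the filter, and 2 rose and 3 fell with IL-1β. The innate immune receptor gene Tlr2 rose from 2.85 ± 0.321 to 94.6 ± 2.32 FPKM and stood at 38.6 ± 5.11 in co-culture (log2 differences 4.64 and -1.28, limma adjusted p = 9.83e-11 and 7.03e-06). Tlr4 was the other gene that rose, from 1.01 ± 0.110 to 1.71 ± 0.272 FPKM, near the filter of 1 FPKM. Hmmr, a hyaluronan-binding protein that also acts at the mitotic spindle, fell with IL-1β by 0.34 and was 0.29 higher in co-culture than with IL-1β alone. Habp4 fell by 0.49 and was then 0.33 higher, and Layn, which encodes the receptor layilin, fell by 0.52. C1qbp, which encodes a mainly mitochondrial protein that also binds hyaluronan, stood at 241.0 ± 7.03, 249 ± 2.21 and 271 ± 11.2 FPKM in control, IL-1β and co-culture. It was called higher in co-culture than in control (log2 difference 0.17, limma adjusted p = 0.00409) and than with IL-1β alone (0.12, limma adjusted p = 0.0291). The first call ended with quantile normalization (0.0518). The second ended with median-of-ratios scaling, with quantile normalization, without the trend, and without any 1 of the 3 IL-1β libraries or co-culture replicate 1 (0.0541 to 0.0836). The endothelial and lymphatic receptor genes Lyve1, Stab1 and Stab2 did not exceed 0.19 FPKM.

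CD44 is tied to the actin cytoskeleton by ezrin, radixin and moesin and is cut from the surface by membrane proteases. All 8 genes of this list passed the filter. With IL-1β 2 rose (Adam17 and Adam10) and 3 fell (Ezr, Mmp14 and Rdx), and in co-culture 3 rose and 1 fell from the IL-1β level. The ezrin gene Ezr stood at 56.4 ± 0.745, 33.0 ± 0.450 and 47.99 ± 1.27 FPKM in control, IL-1β and co-culture (log2 differences -0.76 and 0.53, limma adjusted p = 1.96e-08 and 2.38e-06). The moesin gene Msn was more abundant, at 317 ± 4.61, 321 ± 7.91 and 334 ± 4.14 FPKM, and was not called in any of the 3 comparisons. Adam17, a sheddase, stood at 34.2 ± 1.43, 62.4 ± 0.883 and 49.7 ± 3.40 FPKM, with log2 differences of 0.85 and -0.33. Mmp14 fell by 0.40 with IL-1β and was 0.12 higher in co-culture than with IL-1β alone. The other gene called higher in co-culture, Rdx (0.12, limma adjusted p = 0.0373), lost its call in 9 of 16 other settings, among them leaving out any 1 of the 3 IL-1β libraries, co-culture replicate 2 or co-culture replicate 3 (adjusted p 0.0619 to 0.115).

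The last list held other hyaluronidases and the lysosomal enzymes that trim hyaluronan fragments, of which 4 of 9 were in the table and tested. Tmem2, named Cemip2 in RefSeq and related to Cemip, rose from 6.21 ± 0.419 to 23.6 ± 0.590 FPKM with IL-1β (log2 difference 1.77, limma adjusted p = 1.43e-09). In co-culture it stood at 14.6 ± 0.389 (-0.66 from IL-1β alone, limma adjusted p = 1.33e-05), and the 3 groups did not overlap. Its co-culture mean lay 48.2% of the way from control to IL-1β (46.3% to 50.6% by library). Tmem2 and Cemip thus moved in opposite directions with IL-1β and both fell from IL-1β alone to co-culture. The exoglycosidase genes Hexa and Gusb were called higher with IL-1β by 0.16 and 0.14 on the log2 scale. Rescaling to a common sum ended both calls (adjusted p 0.0598 for Hexa and 0.185 for Gusb). The Gusb call also ended under the other 2 rescalings (0.0521 and 0.0713) and without control replicate 2 (0.0636), IL-1β replicate 1 (0.0766) or IL-1β replicate 2 (0.0770).

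**Figure D4:**
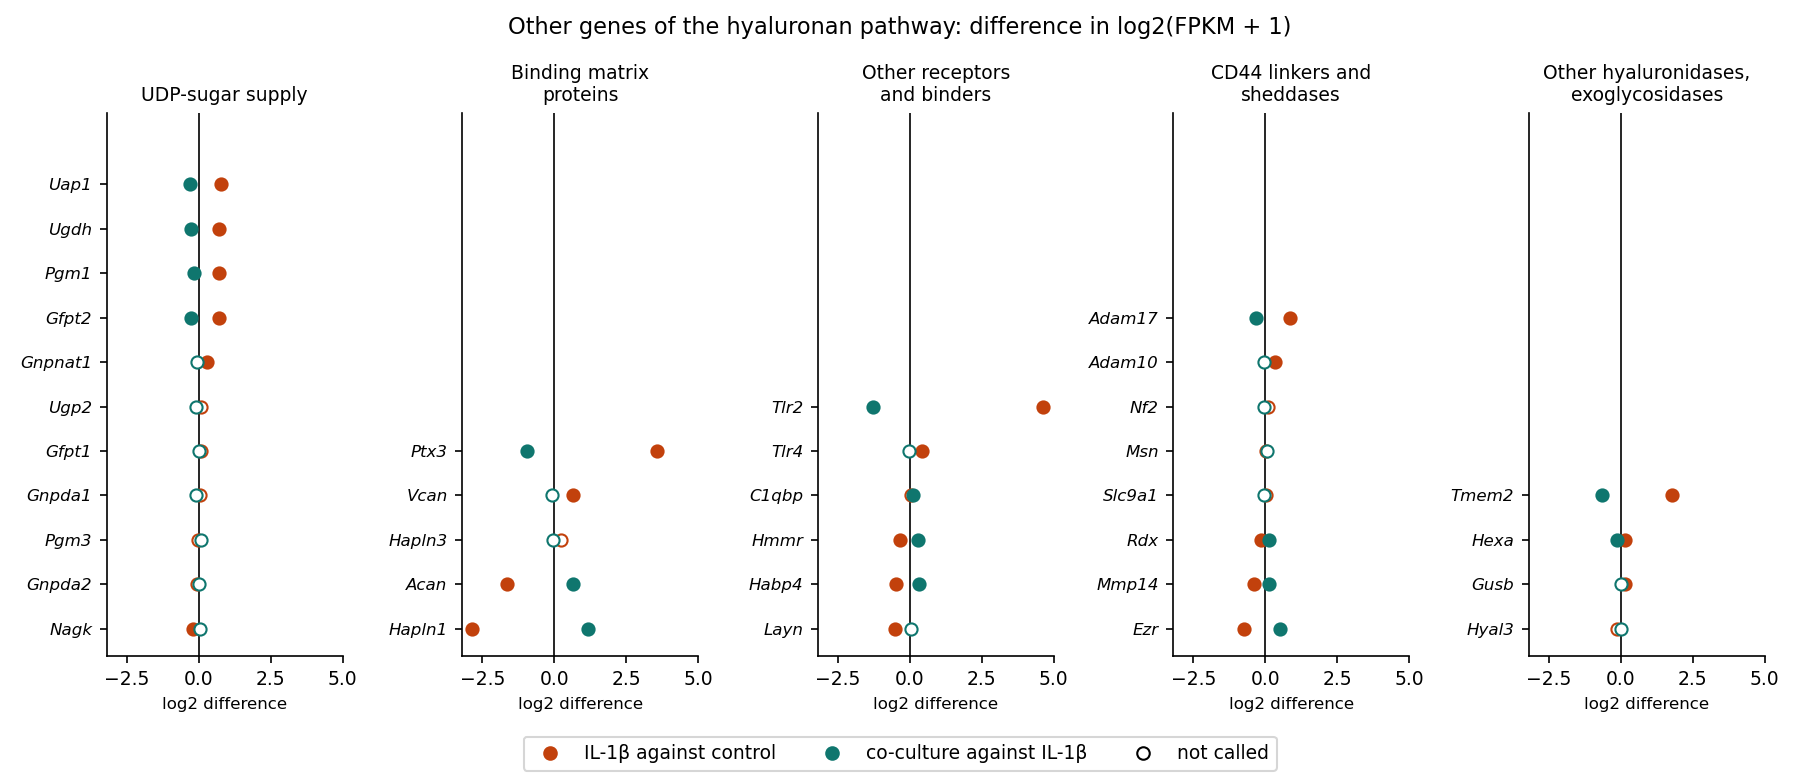
Differences in log2(FPKM + 1) of the 34 tested genes of 5 further hyaluronan pathway lists, one list per panel, for IL-1β against control and co-culture against IL-1β; open points are not called. Ptx3, Tlr2 and Tmem2 lie farthest to the right with IL-1β (3.56, 4.64 and 1.77) and to the left in co-culture, and Hapln1, Acan and Ezr show the opposite order.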

How the data were processed

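Per the file headers, the deposited values are FPKM computed by the authors; the table covers 17588 genes and 9 libraries and its values carry 2 decimals. GRCm38, a mouse build, stands in the submitters' processing notes although the samples are labelled rat. RefSeq's rat table (GRCr8) held 93.2% of the gene identifiers. The aligner, counter, annotation, strand setting, IL-1β dose and culture times were not given in the sources used here. Genes at 1 FPKM or more in at least 3 libraries were tested on log2(FPKM + 1), a pseudocount of 1, without rescaling, in limma 3.58.1 (R 4.3.3) with a mean-variance trend over all 9 libraries. Tests were two-sided with Benjamini-Hochberg adjustment over the 11732 genes tested, and a call is an adjusted p under 0.05. The test was also run on simulated data with independent normal noise, few changed genes and no shift of scale between libraries. Those settings are simpler than the real libraries, so the run does not check the test on them.

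Synthase sums and shares were compared with exact two-sided permutation tests. Where the lowest FPKM values of rarely seen genes allowed an estimate (3 to 16 genes a library), 1 read was worth 0.972 to 1.08 times its worth in the first control library; the absolute depth is unknown. A value of 0 can be a failed estimate, since Hprt1 and Polr2h, which all cells use, have a 0 in 5 and 3 libraries and reach 15.1 and 19.4 FPKM in others. The members and lists were chosen with earlier results of these data known; 2 genes of the lists are not reported here. Named were all 8 members and, per list and comparison, up to 4 tested genes with the smallest p. Others, named because a count was small or as a related gene, were chosen after their values were seen. A rule to name genes of like pattern asked for group means at least 2-fold apart, which no member reached. Alternatives covered pseudocount, filter, scaling, trend, the libraries fitted, a replicate block and leaving out each library.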

Additional observations from a re-analysis of the deposited data

How the results depend on the processing

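None of the 21 directions of the 7 tested members turned under any alternative run. The number of members called with IL-1β was 5, and 3 to 5 when 1 library was left out. From IL-1β to co-culture 4 were called, and 2 with genes of mean FPKM 5 or more, since that filter removed Has1, Hyal1 and Cemip from the test, which left Cd44, and Has2 passed (-0.113, adjusted p = 0.0488). Scaling moved the split of all calls. With IL-1β 56.7% of the called genes were higher, but 41.4% with a common sum, 41.0% with quantile normalization and 49.9% with median of ratios. In co-culture against control it was 64.2%, but 43.4%, 45.0% and 49.8% (median of ratios). Replicate numbers gave no clear sign of pairing the libraries (correlation of same-numbered deviations -0.091 to 0.085). Some libraries correlated best with their own number and others did not, and the labels do not say whether the numbers pair. With the replicate block the members called numbered 5, 3 and 4 in the 3 comparisons, against 5, 4 and 4 without it, the lost call being Has1 from IL-1β to co-culture (adjusted p = 0.0691). Of the other pathway genes named for the smallest p in a list and comparison, 3 turned in direction where they were not called in the reported test. From IL-1β to co-culture Gusb measured -0.00958 with median of ratios, -0.00318 with quantile normalization, and -0.0422 to 0.0298 when 1 library was left out, below 0 without IL-1β replicate 3, co-culture replicate 2 (-0.00437) or co-culture replicate 3 (-0.000617). Hyal3 measured -0.0939 to 0.116 there when 1 library was left out, below 0 without IL-1β replicate 2 or co-culture replicate 1. In co-culture against control Hexa measured -0.0402 with a common sum, -0.0197 with median of ratios, -0.0204 with quantile normalization, and -0.00403 to 0.0513 when 1 library was left out, below 0 without control replicate 1. The causes of these changes were not tested except where the filter shows it. The FPKM table gives no counts, so the precision of low genes such as Has3 is limited by an unknown depth.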
